A study of Mus musculus with 23 samples.

Results

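The mesothelium is the single sheet of flattened epithelial cells that lines the body cavities and covers the organs and the fat and vessels suspended in them, and 8 genes commonly used as its markers were followed here across 3 arterial beds of the mouse. They were Msln, Upk3b, Upk1b, Wt1, Krt19, Lrrn4, Krt8 and Krt18, and every array probe whose annotation gives one of these symbols was used. Of 19057 gene symbols on the array, 7 of the 8 genes had a probe, with 11 probes between them, and Wt1 was not analysed here. The mice were male C57BL/6J animals that received angiotensin II at 490 ng/kg/min (AngII, hypertensive) or vehicle (Sham, normotensive) from a subcutaneous osmotic minipump for 14 days, from 12 weeks of age. Mesenteric arteries (branches of the superior mesenteric artery) were profiled on 6 AngII and 5 Sham arrays, thoracic aorta on 3 AngII and 3 Sham arrays and abdominal aorta on 3 AngII and 3 Sham arrays, 23 arrays of Illumina WG-6 v2.0 BeadChips in all. A chip of this kind carries several arrays, and which arrays shared a chip is not given in the sources used here. A pool of RNA from 2 mice was hybridized to every array, so that the spread given below is the spread between pools. Array numbers below only name the arrays of a group.

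Mesothelial cells carry keratin filaments like other epithelia, but they derive from mesoderm. Mesothelin (Msln) is a surface glycoprotein of mesothelium and Wt1 is a transcription factor of mesothelium, kidney podocytes and the developing gonad. Upk3b and Upk1b encode uroplakins, membrane proteins best known from the bladder lining, and of these Upk3b is widely used as a mesothelial marker. Lrrn4 encodes a leucine-rich repeat membrane protein that is also used as a marker of mesothelium. Krt8 and Krt18 form the keratin pair of simple epithelia and Krt19 is another keratin of such epithelia, so that these 3 genes also mark glands, ducts and gut lining.

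Promoter sequences are shown because Upk3b carries the main differences between vessels and treatments, and because Krt8 and Krt18, the obligate filament partners, lie next to each other in the genome. Krt18 differed between Sham vessels, while no Krt8 difference passed and aortic Krt8 lay near background. A divergence of the pair was therefore not shown. Promoters of 4 of the 8 genes (Upk3b, Lrrn4, Krt8 and Krt18) were in the RefSeq table used (GRCm38.p6), and no protein-coding gene lies between Krt8 and Krt18. Each sequence runs from 250 bases before to 50 bases after the annotated start of the gene. The promoter of Upk3b is on chr5:136038246-136038545, plus strand, that of Krt8 on chr15:102004293-102004592, minus strand, and that of Krt18 on chr15:102027966-102028265, plus strand. Capitals mark matches to the motifs named after them.
Upk3b: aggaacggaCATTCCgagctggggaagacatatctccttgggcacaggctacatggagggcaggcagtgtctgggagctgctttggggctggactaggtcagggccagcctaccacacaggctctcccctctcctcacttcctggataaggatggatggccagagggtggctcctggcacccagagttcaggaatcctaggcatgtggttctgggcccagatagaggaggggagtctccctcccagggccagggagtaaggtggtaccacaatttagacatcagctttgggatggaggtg
Krt8: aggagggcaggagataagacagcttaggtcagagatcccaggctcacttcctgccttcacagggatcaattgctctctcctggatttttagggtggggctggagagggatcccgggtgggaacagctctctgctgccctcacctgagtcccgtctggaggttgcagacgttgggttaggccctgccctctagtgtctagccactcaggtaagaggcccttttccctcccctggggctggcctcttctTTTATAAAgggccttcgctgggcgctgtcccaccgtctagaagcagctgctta
Krt18: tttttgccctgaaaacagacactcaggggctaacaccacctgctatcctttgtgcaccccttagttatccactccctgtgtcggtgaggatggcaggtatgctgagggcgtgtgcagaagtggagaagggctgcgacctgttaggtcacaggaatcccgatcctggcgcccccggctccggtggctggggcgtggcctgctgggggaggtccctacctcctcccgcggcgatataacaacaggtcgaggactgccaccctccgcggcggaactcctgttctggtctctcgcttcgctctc
The letters CATTCC, which TEAD factors bind, occurred once in the Upk3b sequence, 241 bases before the start, and in 14.7% of 32851 mouse promoters of the same length. TATAAA occurred in the Krt8 sequence on both strands, in 2 overlapping matches at the annotated start, and in 13.6% of all promoters. Neither motif occurred in the Krt18 sequence. None of the 3 sequences held GGGCGG (a GC box, 35.7% of promoters), TGANTCA (AP-1, 7.81%), or either of GCGTGGGCG and GCGGGGGCG (WT1 and EGR factors, 3.47%). Both strands were searched in each case.

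Signals are given as normalized log2 values, and a detection p under 0.01 counted as detected. Arrays detected 17432 to 18657 of 45281 transcripts, and the lowest detected signal was 4.89 to 5.08 on the log2 scale, so that values under it lie at background and have no order among themselves. The number of arrays limits the precision. The 20585 transcripts that reached detection on 3 or more arrays entered the tests, with limma and Benjamini-Hochberg adjustment over all of them, and an adjusted p under 0.05 is called passing. Of the 8 genes 5 were tested, namely Upk3b (3 probes), Upk1b, Krt19, Krt8 and Krt18 (1 probe each). Krt19 was detected on mesenteric arrays alone and Upk1b on 9 mesenteric arrays and 1 other, so both were tested only because mesenteric arteries had them, which favours a difference over the aorta. Signals of different probes are not compared with each other as levels.

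The defining markers were only partly present. The Msln probe was detected on 0 of 23 arrays, with signals between 4.17 and 5.04, and the Lrrn4 probe on 0 of 23 arrays, with signals between 4.22 and 4.61. The highest Msln signal, 5.04, was that of an AngII array of thoracic aorta and was not called detected. The second probes of Upk1b and Krt8 were likewise detected on no array. Only Upk3b, Upk1b and Krt19 shared an order among Sham vessels, and they are set apart by these results, not in advance. Krt18 followed another order and Krt8 passed in no comparison. The mesothelial label was not borne out by Msln or Lrrn4.

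Among Sham vessels, the uroplakins and Krt19 were highest in mesenteric arteries. Upk3b, Upk1b and Krt19 were detected on 5 of 5 mesenteric Sham arrays, and Upk1b and Krt19 on no Sham array of either aortic compartment. Krt18 ran the other way, being detected on all 6 Sham arrays of the aorta and on 1 of 5 mesenteric Sham arrays. Of the 5 genes tested, 3 were higher and 1 was lower in mesenteric arteries than in thoracic aorta (median log2 difference 1.06), where 51.8% of all transcripts passed and the median over all genes was -0.03. Against abdominal aorta 3 were higher and 0 lower (median 1.16), where 45.9% of transcripts passed and the median over all genes was -0.03. These background shares are so high that the number of genes passing is not by itself particular to the group. In pooled vessel RNA, fewer cells of a type and less RNA per cell cannot be told apart.

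**Figure D1:**
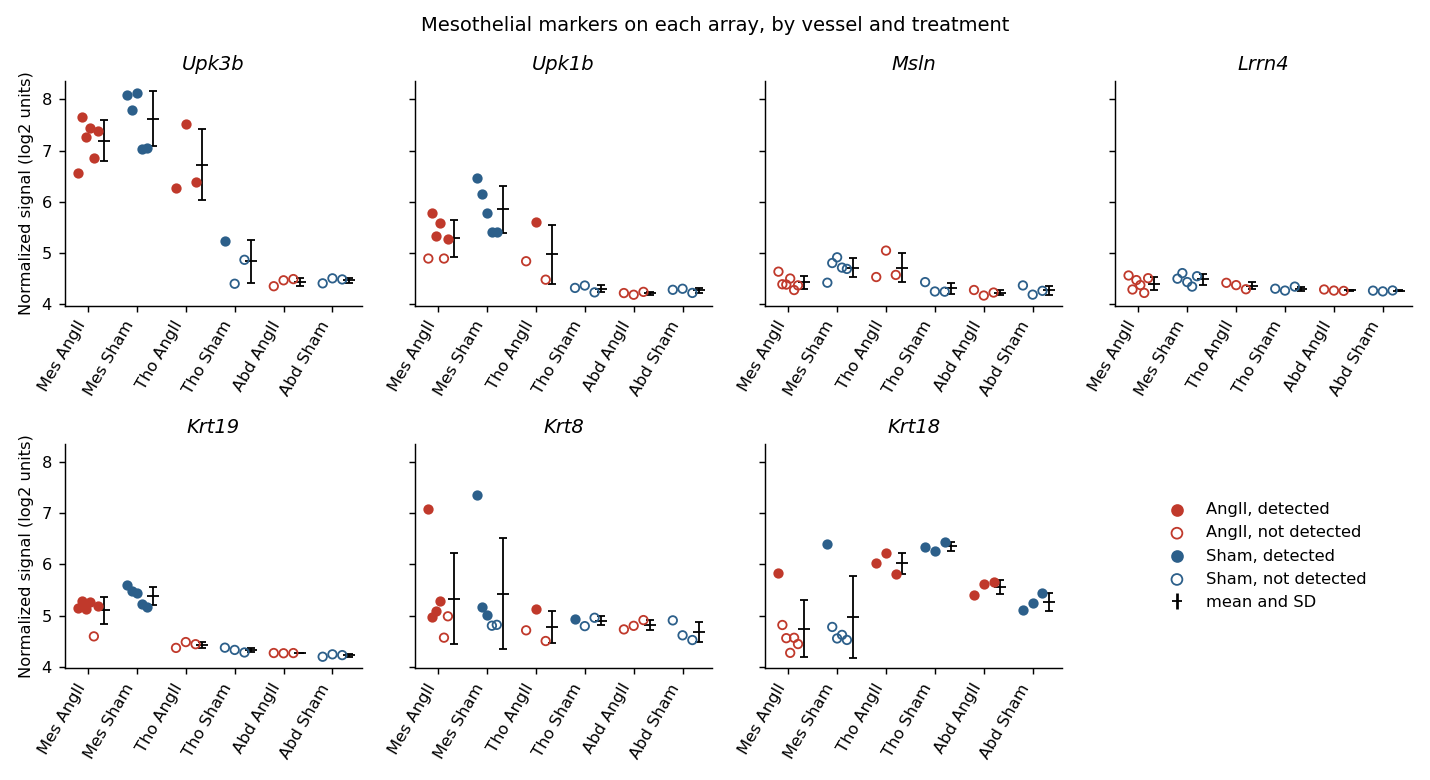
Normalized signal (log2 units) of the probe that represents each gene on each of the 23 arrays, with mesenteric (Mes), thoracic (Tho) and abdominal (Abd) arrays in AngII (red) and Sham (blue) groups. Filled points were detected and open points were not, and the bar beside each group gives the mean and SD. Upk3b was 6.26 to 7.53 on the thoracic AngII arrays and 4.40 to 5.24 on the thoracic Sham arrays, while Msln and Lrrn4 were not detected on any array.

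The Upk3b signal in Sham mesenteric arteries was 8.08, 7.80, 8.13, 7.04 and 7.06, against 5.24, 4.40 and 4.86 in Sham thoracic aorta. In Sham abdominal aorta it was 4.40, 4.50 and 4.48. All mesenteric arrays lay above all aortic ones, and 1 of the 3 thoracic and 0 of the 3 abdominal Sham arrays were called detected. The difference of mesenteric arteries over thoracic aorta was 2.79 ± 0.29 on the log2 scale (SE, adjusted p = 2.38e-08 by limma), a 6.90-fold difference, or 5.69-fold (2.51 on the log2 scale, adjusted p = 1.15e-07) with each undetected signal raised to the lowest detected one of its array, a setting added after the data were seen. Over abdominal aorta the log2 difference was 3.16 ± 0.29 (adjusted p = 5.60e-09), and since no abdominal array was detected this is stated as at least 6.07-fold, by the same floor. The other 2 probes of Upk3b gave 2.33 and 1.26 against thoracic aorta and 2.67 and 1.48 against abdominal aorta, and all 4 of these differences passed. Between Sham thoracic and abdominal aorta the log2 difference of Upk3b was 0.37 (95% interval -0.30 to 1.04, adjusted p = 0.517).

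Upk1b encodes the tetraspanin uroplakin that pairs with uroplakin III proteins. Its signal in Sham mesenteric arteries was 6.47, 6.15, 5.79, 5.42 and 5.42, against 4.32, 4.36 and 4.23 in Sham thoracic aorta and 4.28, 4.30 and 4.22 in Sham abdominal aorta. No aortic Sham array was detected and the groups did not overlap. Mesenteric arteries were at least 1.79-fold higher than thoracic aorta (adjusted p = 7.10e-06) and at least 1.78-fold higher than abdominal aorta (adjusted p = 7.42e-06). The measured log2 differences were 1.55 ± 0.23 and 1.58 ± 0.23 (SE).

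Krt19 showed the same order at a smaller size. Its signal was 5.59, 5.48, 5.45, 5.23 and 5.17 in Sham mesenteric arteries, against 4.37, 4.33 and 4.28 in Sham thoracic aorta and 4.20, 4.24 and 4.23 in Sham abdominal aorta. Mesenteric arteries were at least 1.30-fold higher than thoracic aorta (measured log2 difference 1.06 ± 0.12, SE, adjusted p = 9.44e-08) and at least 1.29-fold higher than abdominal aorta (1.16 ± 0.12, adjusted p = 3.65e-08). This probe was detected on no aortic array of either treatment.

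The direction of these Sham differences depended in part on how vessels were put on a common scale. In the log2 values that the authors deposited, each vessel has its own median. Over the whole chip the array medians were 6.95 to 6.96 (mesenteric), 6.77 (thoracic) and 7.03 to 7.04 (abdominal). Over the 20585 transcripts tested the median difference was 0.28 for mesenteric over thoracic, 0.20 for mesenteric over abdominal and -0.12 for thoracic over abdominal. With each array of those values centred on its median, Upk3b was higher in mesenteric arteries by 1.12 than in thoracic aorta (adjusted p = 5.55e-06) and by 1.03 than in abdominal aorta (adjusted p = 1.20e-05). Centred in this way, the difference between mesenteric and abdominal vessels was 0.14 for Upk1b (adjusted p = 0.161) and -0.03 for Krt19 (adjusted p = 0.569), so that neither passed and Krt19 changed sign. Against thoracic aorta both still passed, with 0.31 for Upk1b (adjusted p = 0.00366) and 0.11 for Krt19 (adjusted p = 0.0204). In these centred values 13315 of 20585 transcripts passed against thoracic aorta and 14697 against abdominal aorta, so that a pass was common. The median difference over the transcripts tested was -0.11 against thoracic and -0.08 against abdominal aorta, and Krt19 lay above it in both.

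Krt18, the acidic keratin of simple epithelia, was an aortic transcript in these arrays. Its signal in Sham mesenteric arteries was 6.40, 4.78, 4.55, 4.62 and 4.52, against 6.35, 6.27 and 6.43 in Sham thoracic aorta and 5.11, 5.25 and 5.44 in Sham abdominal aorta. Only the first mesenteric array was detected, and it alone reached the thoracic level. Krt18 was lower in mesenteric arteries than in thoracic aorta by a log2 difference of -1.38 ± 0.33 (SE, adjusted p = 0.00115), and without the first mesenteric array the difference was -1.73. In the deposited values without centring it was -0.14 and did not pass (adjusted p = 0.296). Against abdominal aorta the difference was -0.29 (95% interval -0.97 to 0.39, adjusted p = 0.496), which became -0.65 (adjusted p = 0.0257) without that array. Thoracic over abdominal aorta gave 1.09 ± 0.37 with groups that did not overlap (adjusted p = 0.0507).

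Krt8, the basic partner of Krt18, passed in no comparison of Sham vessels. It was 7.35, 5.16, 5.01, 4.80 and 4.82 in Sham mesenteric arteries, against 4.94, 4.79 and 4.96 in Sham thoracic aorta and 4.91, 4.61 and 4.52 in Sham abdominal aorta. All groups overlapped near background apart from the first mesenteric array. The log2 difference over thoracic aorta was 0.53 (95% interval -0.44 to 1.50, adjusted p = 0.359) and over abdominal aorta 0.75 (95% interval -0.22 to 1.72, adjusted p = 0.203). Between thoracic and abdominal Sham aorta 0 of the 5 genes passed by limma, 1 had an unadjusted p under 0.05 (Krt18), and 13.8% of all transcripts passed. Other settings gave 0 to 2 genes in this comparison, with 2 in the deposited values, where 12051 of 20585 transcripts passed.

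After AngII the thoracic aorta had more Upk3b, while no gene of the group passed in the other vessels. In thoracic aorta 1 of 5 genes rose and 0 fell, where 17.3% of all transcripts passed. Upk3b was 6.26, 7.53 and 6.39 in AngII thoracic aorta, against 5.24, 4.40 and 4.86 in Sham thoracic aorta. All 3 AngII arrays were detected and lay above every Sham array, of which 1 was detected. The rise was 1.89 ± 0.32 on the log2 scale (SE, n = 3 each, adjusted p = 0.00502), or 3.71-fold. A second probe rose by 1.35 (adjusted p = 0.0126), and the third, the dimmest, gave 0.57 (adjusted p = 0.0720) and was detected on 2 of 3 AngII arrays and 0 of 3 Sham arrays. With undetected signals raised to the floor the rise was 1.61 (adjusted p = 0.00532), or 3.06-fold, and in the deposited values it was 0.62 (adjusted p = 0.0336). The AngII thoracic arrays overlapped the AngII mesenteric arrays in Upk3b signal, which ran from 6.56 to 7.66 there with a median of 7.32.

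The other thoracic values were smaller. Upk1b was 4.84, 5.60 and 4.48 in AngII thoracic aorta, against 4.32, 4.36 and 4.23 in Sham thoracic aorta. Only the second AngII array was detected, and the other 5 arrays lay at background without an order. The log2 difference was 0.67 ± 0.23 (SE, 95% interval 0.14 to 1.20) and did not pass (adjusted p = 0.0811), and it was 0.63 without background correction (adjusted p = 0.0229) and 0.91 without the third AngII array (adjusted p = 0.0253). With undetected signals raised to the floor it was 0.17 (adjusted p = 0.539). Krt19 was 4.37, 4.48 and 4.44 on the AngII arrays, against 4.37, 4.33 and 4.28 on the Sham arrays, none detected (log2 difference 0.10, adjusted p = 0.448). The second AngII array held the highest signal of its group for Upk3b, Upk1b, Krt8 and Krt18.

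Krt8 was 4.71, 5.12 and 4.50 in AngII thoracic aorta, against 4.94, 4.79 and 4.96 in Sham thoracic aorta (log2 difference -0.12, 95% interval -0.46 to 0.22, adjusted p = 0.636). Krt18 was 6.03, 6.22 and 5.81 in AngII thoracic aorta, against 6.35, 6.27 and 6.43 in Sham thoracic aorta. Every Krt18 signal was detected and the AngII arrays lay below the Sham arrays. The log2 difference of Krt18 was -0.33 ± 0.12 (SE) and did not pass (adjusted p = 0.0833), and without the second AngII array it was -0.43 (adjusted p = 0.0409). Krt18 thus gave a value of the opposite sign to Upk3b in the same aortas, without passing.

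**Figure D2:**
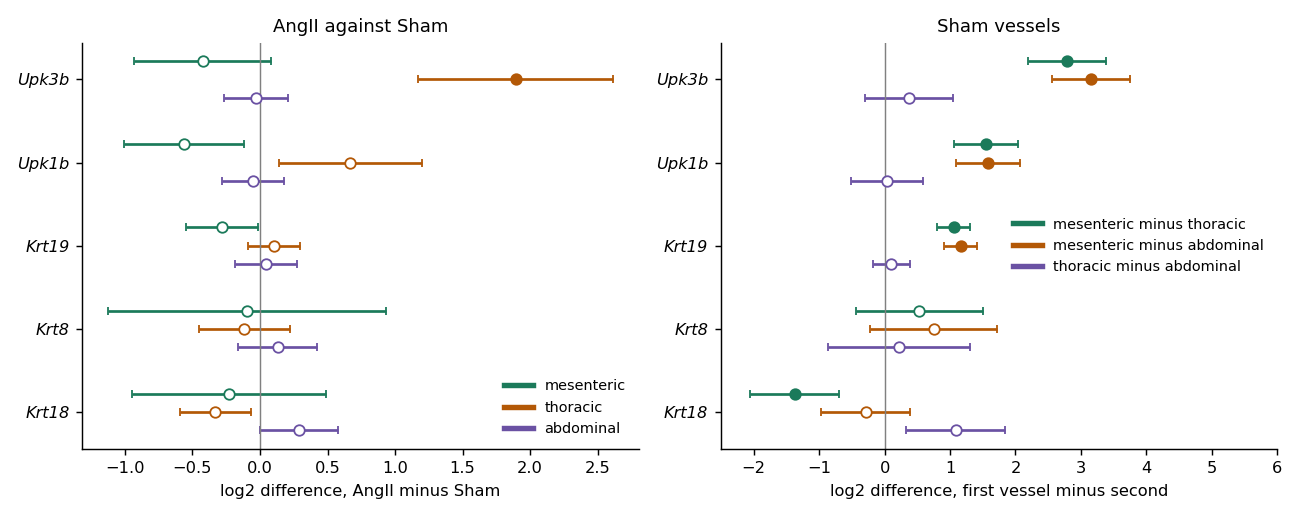
Log2 differences with 95% intervals for the 5 genes tested. The left panel plots AngII minus Sham in mesenteric arteries (green), thoracic aorta (orange) and abdominal aorta (purple), the right panel plots Sham vessels, mesenteric minus thoracic (green), mesenteric minus abdominal (orange) and thoracic minus abdominal (purple), and filled points passed at an adjusted p under 0.05. Upk3b in thoracic aorta, 1.89, is the only filled point of the left panel, and in the right panel the Krt19 difference over abdominal aorta changed sign to -0.03 in the centred deposited values. The median over the transcripts tested was -0.08 there.

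In mesenteric arteries the 5 genes had log2 differences of one sign, and none passed. This lean was known when the genes were listed, so the common sign is a description. By limma 0 of 5 passed, 2 had an unadjusted p under 0.05 (Upk1b and Krt19), the median difference was -0.28 against -0.01 over all genes, and 0.340% of all transcripts passed. Upk3b lay between 6.56 and 7.66 (median 7.32) on the 6 AngII arrays, against 7.04, 7.06, 7.80, 8.08 and 8.13 on the Sham arrays. The groups overlapped, and the difference was -0.43 ± 0.24 (SE, 95% interval -0.93 to 0.08, adjusted p = 0.410). Upk1b lay between 4.89 and 5.78 (median 5.30) on the AngII arrays, of which 4 were detected, against 5.42, 5.42, 5.79, 6.15 and 6.47 on the Sham arrays, all detected. Its difference was -0.56 ± 0.21 (SE, adjusted p = 0.212). Krt19 lay between 4.59 and 5.29 (median 5.16) on the AngII arrays, against 5.17, 5.23, 5.45, 5.48 and 5.59 on the Sham arrays, a difference of -0.28 ± 0.12 (SE, adjusted p = 0.286).

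Krt8 and Krt18 had wider spreads in mesenteric arteries. Krt8 lay between 4.57 and 7.08 (median 5.04) with AngII, against 4.80, 4.82, 5.01, 5.16 and 7.35 with Sham, a log2 difference of -0.10 (95% interval -1.13 to 0.94, adjusted p = 0.952). Krt18 lay between 4.27 and 5.83 (median 4.56) with AngII, against 4.52, 4.55, 4.62, 4.78 and 6.40 with Sham, a difference of -0.23 (95% interval -0.95 to 0.49, adjusted p = 0.798). Without the first Sham array the differences were 0.39 for Krt8 and 0.13 for Krt18, so that their sign rested on that array.

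In abdominal aorta nothing of the group passed. By limma 0 of 5 genes passed, 0 had an unadjusted p under 0.05, and 1.09% of all transcripts passed. Upk3b was 4.35, 4.46 and 4.49 in AngII abdominal aorta, against 4.40, 4.50 and 4.48 in Sham abdominal aorta, with no array detected by this probe. Its dimmest probe was detected on 1 abdominal array, AngII array 3, at 5.23. The difference of the main probe was -0.03 (95% interval -0.27 to 0.21, adjusted p = 0.922), and under cyclic loess normalization it was 0.10. Upk1b and Krt19 were also detected on no abdominal array. Krt18 was 5.40, 5.61 and 5.65 in AngII abdominal aorta, against 5.11, 5.25 and 5.44 in Sham abdominal aorta, a difference of 0.29 (95% interval -0.0011 to 0.58, adjusted p = 0.329). Krt8 lay between 4.73 and 4.91 with AngII and between 4.52 and 4.91 with Sham (difference 0.13, adjusted p = 0.670).

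The difference in AngII effect between vessels was tested directly. The effect of AngII on Upk3b was lower in mesenteric arteries than in thoracic aorta by -2.32 ± 0.40 on the log2 scale (SE, adjusted p = 0.000692), and that on Upk1b by -1.23 ± 0.33 (adjusted p = 0.0172). The mesenteric side of these differences is the lean known when the genes were listed. For Upk1b the thoracic side rests on 1 detected array of 6, and with undetected signals raised to the floor its difference was -0.70 and did not pass (adjusted p = 0.127), whereas that of Upk3b was -2.04 and passed (adjusted p = 0.00166). On the measured signals these 2 of 5 genes passed, where 11.4% of all transcripts did. Without the second AngII thoracic array the Upk1b difference was -0.92 and did not pass (adjusted p = 0.0664). Krt19 gave -0.38 (adjusted p = 0.141), Krt8 0.02 and Krt18 0.10. Between mesenteric arteries and abdominal aorta 0 of 5 passed by limma and 0 had an unadjusted p under 0.05, where 1.85% of transcripts passed. Between thoracic and abdominal aorta 0 of 5 passed and 1 had an unadjusted p under 0.05, where 0.452% of transcripts passed. That gene was Upk3b, with 1.92 ± 0.46 (SE, 95% interval 0.98 to 2.87, unadjusted p = 0.00035 by limma, adjusted p = 0.0642). The thoracic rise thus differed from the mesenteric effect after adjustment. Its difference from the abdominal effect missed the threshold after adjustment, which does not show that the thoracic and abdominal effects were alike.

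The order of the Upk3b levels over the groups was mesenteric Sham (7.62 ± 0.54, SD, n = 5), mesenteric AngII (7.19 ± 0.41, n = 6), thoracic AngII (6.73 ± 0.70, n = 3), and then thoracic Sham (4.83 ± 0.42, n = 3, 1 array detected) and the abdominal groups, whose means were all at background and have no order. Neighbouring groups among the highest 3 overlapped. For Upk1b the order was mesenteric Sham (5.85 ± 0.46, n = 5) and mesenteric AngII (5.29 ± 0.36, n = 6), which overlapped, ahead of thoracic AngII (4.97 ± 0.57, n = 3, 1 array detected) and the other groups, with 0 detected arrays. For Krt18 it was thoracic Sham (6.35 ± 0.08, n = 3), thoracic AngII (6.02 ± 0.20, n = 3) and the abdominal groups, ahead of mesenteric arteries.

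Other genes associated with mesothelium were examined as a list of 15, of which 14 had a probe and 10 were tested. In Sham mesenteric arteries 8 of 10 were higher and 0 lower than in thoracic aorta (median log2 difference 0.85), where 22.5% of all transcripts were higher. Aldh1a2, Gpm6a and Bnc1 were detected on mesenteric arrays alone, and Rspo1 on those and 1 abdominal Sham array. These genes were tested only because mesenteric arteries had them, which favours a difference over the aorta. Against the floor the Bnc1 difference over thoracic aorta was -0.07 on the log2 scale. Slpi, a secreted inhibitor of serine proteases, lay between 8.30 and 10.29 (median 8.99) on mesenteric Sham arrays, against 4.39, 4.53 and 4.66 on thoracic Sham arrays, where it was not detected. It was at least 16.6-fold higher (adjusted p = 1.99e-09). Aldh1a2, which makes retinoic acid, was at least 2.48-fold higher (adjusted p = 6.64e-12), Gpm6a, a membrane glycoprotein, at least 1.51-fold (adjusted p = 9.53e-11), and Pdpn, podoplanin, which is also found on lymphatic endothelium and fibroblasts, was higher by 1.52 on the log2 scale (adjusted p = 4.23e-09). Against abdominal aorta 7 of 10 were higher and 0 lower (median 0.54), where 21% of all transcripts were higher. Between thoracic and abdominal aorta 0 were higher and 3 lower, namely Rspo1, Nkain4 and Pkhd1l1, where 7.35% of all transcripts were lower. Calb2, Tm4sf5 and Upk3bl, further genes of the list, were detected on 0 of 23 arrays.

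After AngII in thoracic aorta 3 of these 10 genes rose and 0 fell (median 0.09), where 8.63% of all transcripts rose and 8.62% fell. Slpi was 5.86, 6.22 and 6.76 on the AngII arrays in ascending order, against 4.39, 4.53 and 4.66 on the Sham arrays, a rise of at least 2.42-fold (measured log2 difference 1.76 ± 0.20, SE, adjusted p = 0.000759). Pdpn rose by 0.55 (adjusted p = 0.0127) and Cldn15, a tight junction claudin, by 0.52 (adjusted p = 0.0198). Bnc1, Rspo1, Aldh1a2 and Gpm6a were detected on 0 of the 6 thoracic arrays, so that a change in them could not be measured. The remaining 3, Krt7 (0.24), Pkhd1l1 (-0.21) and Nkain4, did not pass. In mesenteric arteries 0 of the 10 passed (median -0.15), with -0.42 for Slpi, -0.33 for Cldn15 and -0.03 for Pdpn. The AngII effect on Slpi differed between mesenteric arteries and thoracic aorta by -2.18 (adjusted p = 0.0141) and that on Cldn15 by -0.84 (adjusted p = 0.00415). In abdominal aorta 0 of the 10 passed.

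**Figure D3:**
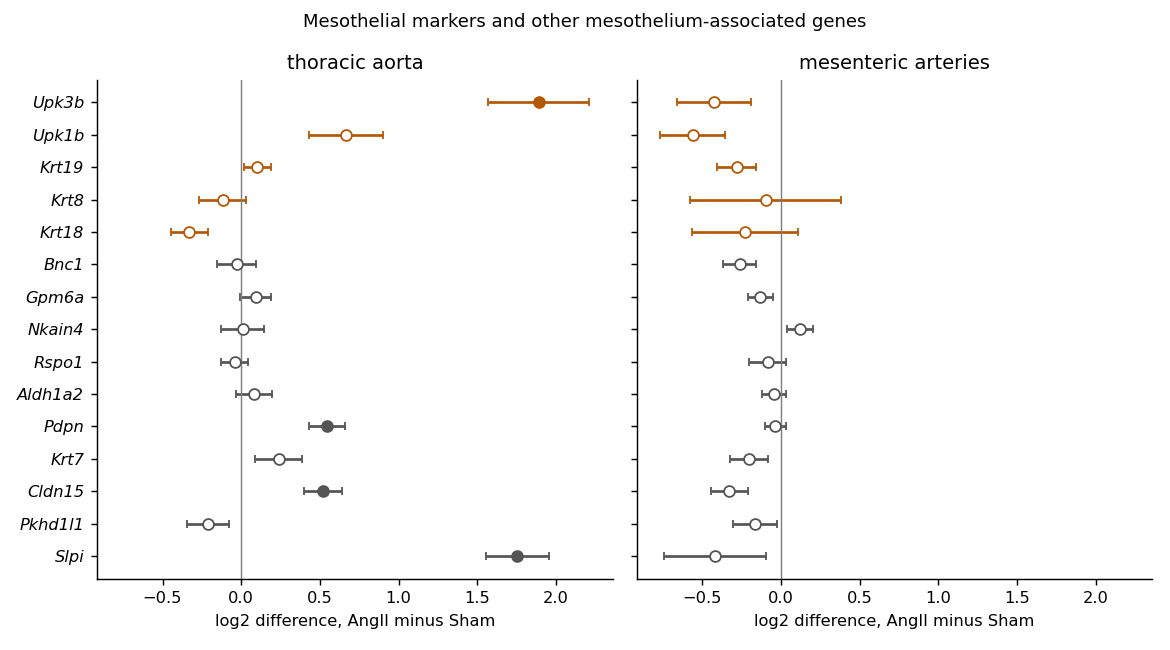
Log2 differences, AngII minus Sham, with standard errors, in thoracic aorta (left) and mesenteric arteries (right) for the 5 mesothelial marker genes tested (orange) and 10 other mesothelium-associated genes (grey), filled where the adjusted p was under 0.05. Upk3b (1.89), Slpi (1.76), Pdpn (0.55) and Cldn15 (0.52) passed in thoracic aorta, and none passed in mesenteric arteries.

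Uroplakins and keratins are shared with other epithelia, so markers of those were measured too. Of 5 genes of uroplakin partners and urothelium, Upk2, Upk3a, Krt5 and Krt20 were detected on no array. Upk1a, the remaining one, was 5.08, 5.12 and 5.14 in AngII thoracic aorta in ascending order, against 4.39, 4.59 and 4.64 in Sham thoracic aorta, where no array was detected. It rose by at least 1.08-fold (measured log2 difference 0.58 ± 0.10, SE, adjusted p = 0.00481). Upk1a was detected on 3 AngII thoracic arrays, 1 Sham mesenteric array and 1 Sham abdominal array. It was thus tested only because AngII thoracic aorta had it, which favours a rise there. Of 9 genes of duct and gut epithelium with a probe, Epcam, Cldn4, Vil1 and Cftr were detected on 0 of 23 arrays, and Cdh1, Cldn7, Lgals4, Sox9 and Muc1 were tested. Sox9, a transcription factor of ducts and of cartilage, was detected on every array and rose with AngII in thoracic aorta by 1.24 (adjusted p = 0.000171), and the other 4 did not pass there. Of 7 keratins of stratified epithelium 2 were tested, of which Krt10 rose in thoracic aorta by 0.35 (adjusted p = 0.0460) and Krt14 gave 0.51 (adjusted p = 0.142). The part of other epithelia in the Upk3b rise was not tested.

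Adipocyte and fibroblast markers were also higher in AngII than in Sham thoracic aorta, where 17.3% of all transcripts passed. Whether they varied with Upk3b from array to array was not tested. Of 8 white adipocyte genes tested, 5 rose and 0 fell with AngII in thoracic aorta (median 0.91; 8.63% of all transcripts rose), among them Adipoq (adiponectin, 1.19, adjusted p = 0.00200), Lpl (lipoprotein lipase, 1.02, adjusted p = 0.00310) and Pparg (1.24, adjusted p = 0.00396). Their mean signal was 7.78 to 8.04 on the AngII arrays and 6.83 to 7.39 on the Sham arrays. Of 8 fibroblast genes, 6 rose and 0 fell (median 0.67), with a mean signal of 11.25 to 11.41 on the AngII arrays and 10.58 to 10.62 on the Sham arrays. Smooth muscle genes, the contractile wall itself, gave 0 higher and 2 lower of 8 (Myh11 -0.52, Cnn1 -0.36). Among Sham vessels 7 of the 8 adipocyte genes were higher in mesenteric arteries than in thoracic aorta and 0 lower (median 1.95), and 6 of 8 smooth muscle genes were lower and 1 higher (median -0.64), where 22.5% of all transcripts were higher and 29.2% lower. Endothelial genes were higher there in 7 of 7 cases (median 1.78), fibroblast genes in 5 of 8 with 0 lower (median 1.06) and lymph node genes in 3 of 4 with 1 lower (median 0.95). The part of perivascular tissue and of these cell types in the Upk3b differences was not tested.

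Upk1b and Krt19 varied with Upk3b from one mesenteric pool to the next. Over the 11 mesenteric arrays, as deviations from the mean of their treatment, Upk1b followed Upk3b with Pearson's r = 0.861 (permutation p = 0.00431, 0.0172 adjusted over 4 pairs) and Spearman's rho = 0.691 (permutation p = 0.0412, adjusted 0.0824). Krt19 followed it with r = 0.680 (permutation p = 0.0210, adjusted 0.0420) and rho = 0.718 (permutation p = 0.0262, adjusted 0.0824). Without the 2 arrays farthest from the median of Upk3b, r was 0.954 for Upk1b and 0.828 for Krt19. By rank neither passed after adjustment. The arrays left a gap in Upk3b between a lower and a higher set, and the relation within each set was not tested. Krt8 gave r = 0.055 (permutation p = 0.917, rho = 0.182, p = 0.615) and Krt18 r = 0.029 (permutation p = 0.959, rho = -0.036, p = 0.928). Their r was 0.594 for Krt8 and 0.521 for Krt18 without the 2 arrays farthest from the median of Upk3b.

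**Figure D4:**
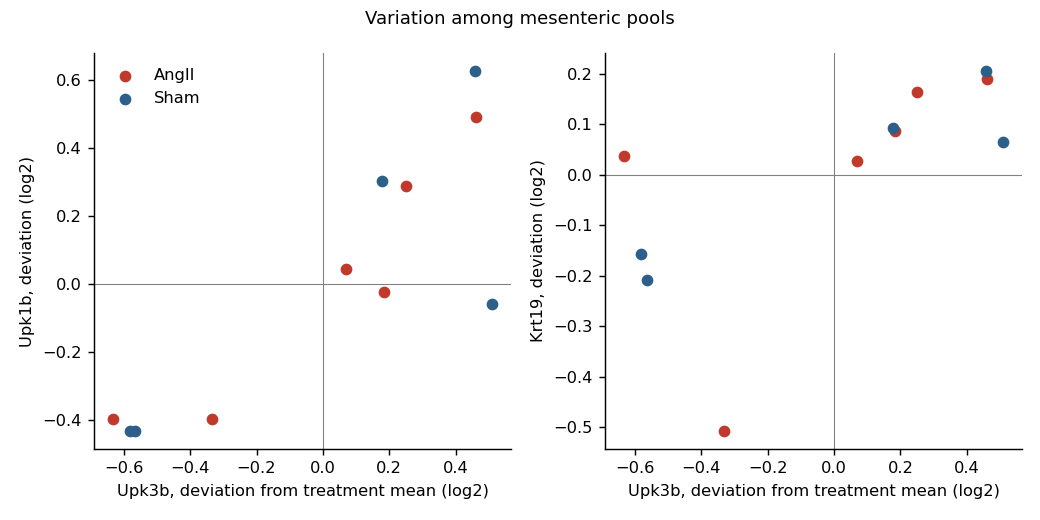
Upk1b (left) and Krt19 (right) against Upk3b on the 11 mesenteric arrays, each as the deviation in log2 units from the mean of its treatment, with AngII arrays in red and Sham arrays in blue. Points rise together in both panels (r = 0.861 and r = 0.680), with a gap in Upk3b between the lower and the higher arrays.

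Pancreatic tissue lies beside the mesenteric arteries, and 3 mesenteric arrays were rich in its transcripts. The mean signal of 11 acinar genes (digestive enzymes of the exocrine pancreas) was 12.84 to 14.08 on AngII arrays 1 and 2 and Sham array 1, against 5.39 to 9.12 on the other 8 mesenteric arrays. Krt8 and Krt18 were highest on 2 of these, with 7.08 and 5.83 on AngII array 1 and 7.35 and 6.40 on Sham array 1. Muc1, a mucin of ducts and glands, likewise reached 7.35 among AngII and 7.94 among Sham mesenteric arrays. Upk3b was 6.56 to 8.08 on the 3 rich arrays and 6.86 to 8.13 on the others, and Krt19 was 5.14 to 5.59 against 4.59 to 5.48, so that both overlapped. Without these 3 arrays the AngII difference of Krt8 in mesenteric arteries was 0.04, that of Upk3b -0.27 and that of Upk1b -0.43, and r with Upk3b was 0.796 for Upk1b, 0.761 for Krt19, 0.708 for Krt8 and -0.0996 for Krt18. Among Sham vessels Upk3b remained higher in mesenteric arteries without Sham array 1, by 2.67 over thoracic aorta.

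**Figure D5:**
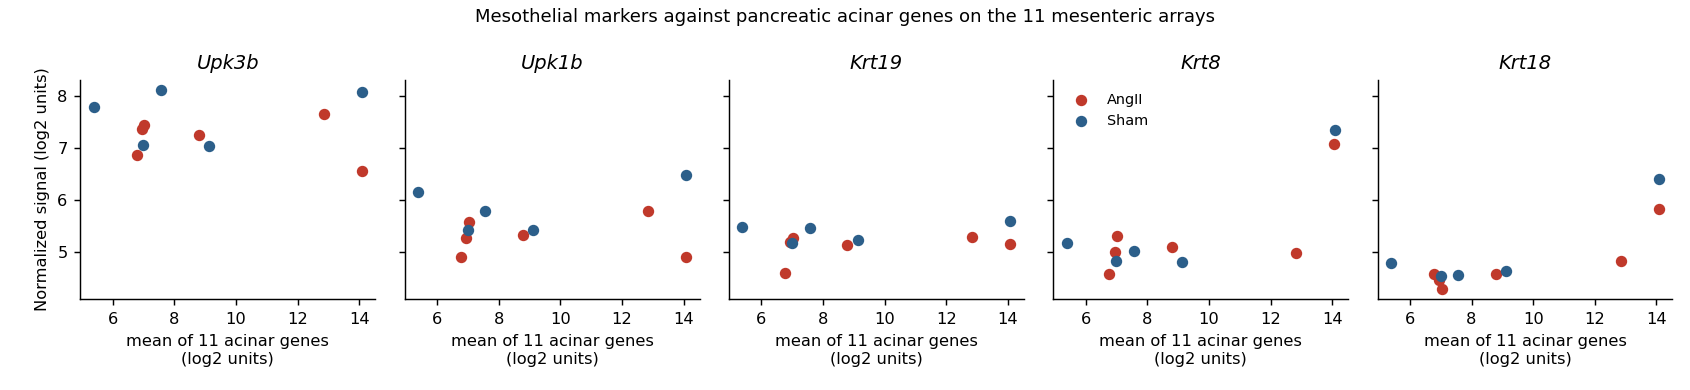
Normalized signal (log2 units) of the 5 genes tested against the mean signal of 11 pancreatic acinar genes on the 11 mesenteric arrays, AngII in red and Sham in blue. Krt8 (7.08 and 7.35) and Krt18 (5.83 and 6.40) stand out on the arrays at an acinar mean near 14, whereas Upk3b, Upk1b and Krt19 overlap between rich and other arrays.

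Genes whose variation among the 11 mesenteric arrays was most like the mean of the 5 genes tested, of 10950 genes compared, were Sel1l (r = 0.928), 9930021J03Rik (r = 0.909), Cstf1 (r = 0.902), Smim24 (r = 0.901) and Gal (r = 0.892). That mean was highest on AngII array 1 (5.90) and Sham array 1 (6.78) of their groups, where Krt8 and Krt18 were also highest. Being the highest of 10950, these r values carry no test. For Upk3b alone, a comparison added after the data were seen, the genes most alike were Parp6 (r = 0.896), Sesn2 (r = 0.891), Pkn2 (r = 0.868), Abcd3 (r = 0.840) and Sorcs1 (r = 0.834), none of them on the lists used here. The mean of the 5 genes per array was 5.12 to 5.79 in AngII thoracic aorta and 4.83 to 5.04 in Sham thoracic aorta, and in mesenteric arteries its median was 5.52 on AngII arrays (range 5.10 to 5.90) and 5.79 on Sham arrays (range 5.40 to 6.78).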

How the data were processed

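RNA was profiled on Illumina WG-6 v2.0 BeadChips read on a HiScan system. The authors deposited background-subtracted intensity values, not normalized across arrays, each with a detection p-value, and log2 values from lumi's robust spline normalization (R 3.0.2), per the study's methods, after removal of samples failing quality control. The probe annotation gives 34885 probes 1 symbol, 18 several and 10378 none.

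The 23 arrays were normalized together from the intensities by neqc in limma 3.58.1 (R 4.3.3, statmod 1.5.0) at an offset of 16, with negative controls inferred from the detection p-values. A transcript needed a detection p under 0.01 on 3 or more arrays. AngII effects came from one limma fit per vessel, and Sham vessels and differences of effect in a fit of 6 group means, all tests being two-sided, with p-values adjusted after Benjamini-Hochberg. Correlations were tested with 100000 permutations within treatment. The test was tried on simulated data. Plots were drawn with matplotlib 3.10.9 in Python 3.11.15. Array intensities have no sequencing depth.

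Where a gene had several probes, the brightest on average stood for it. The rule for named genes took every probe of the 8 genes, from other lists at most 4 genes with the smallest adjusted p and undetected markers, and the 5 genes most alike. Genes and lists were chosen with earlier results of these data known. Muc1, and the mesothelium-associated genes named for small AngII differences in thoracic aorta, were chosen after their values were seen.

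Intensity columns were assigned to groups by name, and every one matched a log2 column of its own group best (23 of 23, r = 0.738 to 0.922). Replicate numbers were not used to pair samples in the main tests. Correlations of deviations between AngII and Sham samples of equal number ran from -0.558 to 0.859, which does not settle whether they are paired. Pools of different vessels may share mice, which the tests between vessels ignore. Alternatives were the deposited values, no background correction, cyclic loess, an offset of 50, no filter, undetected signals raised to the lowest detected one, a trend in the prior, other fits, and each array or the pancreas-rich arrays left out.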

Additional observations from a re-analysis of the deposited data

Results flagged for a closer look

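Of 10 groups of mesenteric arrays tested for a single array standing apart, 5 did, where chance alone would give about 1 in 20. Krt8 was 7.08 on AngII array 1 (nearest other AngII array 5.29) and 7.35 on Sham array 1 (nearest 5.16). Krt18 was 5.83 on AngII array 1 (nearest 4.82) and 6.40 on Sham array 1 (nearest 4.78). These are the same arrays with the highest acinar signal, at a mean of 14.08 each. Krt19 was 4.59 on AngII array 5 (nearest 5.13), which was also the lowest AngII array but one in Upk3b and had an acinar mean of 6.77.

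The AngII effect differed between mesenteric arteries and thoracic aorta for Upk3b (-2.32) and Upk1b (-1.23) by the limma test of the difference itself. Each difference includes the mesenteric lean that was known when the genes were listed. In thoracic aorta the 3 AngII arrays lay above the 3 Sham arrays for Upk3b, while for Upk1b 1 AngII array and 0 Sham arrays were detected, and with undetected signals raised to the floor the Upk1b difference was -0.70 and did not pass (adjusted p = 0.127). In mesenteric arteries the AngII and Sham arrays overlapped for both genes.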

How the results depend on the processing

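Over all settings, 814 of 870 values for the 5 genes kept direction and side of the threshold, 42 changed sign (3 of these came to pass and 1 lost its pass), 10 came to pass and 4 no longer passed. Of 174 counts of genes passing, 11 moved by over 1.5 times. Upk3b in thoracic aorta passed in every setting run, from 0.62 to 2.12 (adjusted p 0.000344 to 0.0450). The number of genes passing there was 2 without background correction and 1 to 2 with 1 array left out (2 without AngII array 2 or 3). Between Sham thoracic and abdominal aorta it was 2 in the deposited values and 1 in these centred, without background correction, at an offset of 50, with a trend in the prior and with undetected signals raised to the lowest detected one. Of 20585 transcripts, 12051 passed there in the deposited values and 9689 in these centred, against 2840 in the main setting. For the difference of effect between mesenteric arteries and thoracic aorta the number of genes passing was 1 to 2 with 1 array left out (1 without AngII thoracic array 2) and 1 with undetected signals raised.

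Between Sham thoracic and abdominal aorta the sign turned in the deposited values for Upk3b (-0.20), Upk1b (-0.28, adjusted p = 0.0182), Krt19 (-0.24, adjusted p = 0.000160) and Krt8 (-0.22), and in these centred (-0.094, -0.17, -0.14 and -0.11 for the same genes), a setting chosen after seeing the data. Centred values turned Krt19 (-0.026) and Krt8 (-0.060) for mesenteric over abdominal Sham vessels, where the median over the transcripts tested was -0.082. The AngII effect on Krt8, mesenteric against thoracic, turned to -0.027 in the deposited values, -0.017 under cyclic loess and -0.025 at an offset of 50. Upk3b in abdominal aorta was 0.10 under cyclic loess, and Krt8 in mesenteric arteries 0.038 without the pancreas-rich arrays. With 1 array left out, Krt8 ran from -0.44 to 0.39 and Krt18 from -0.44 to 0.13 in mesenteric arteries, Krt8 from -0.29 to 0.020 in thoracic aorta and Upk3b from -0.058 to 0.013 in abdominal aorta. The effect difference of mesenteric against thoracic ran from -0.33 to 0.50 for Krt8 and from -0.11 to 0.46 for Krt18, and that of mesenteric against abdominal from -0.58 to 0.25 for Krt8. With undetected signals raised, a setting chosen after seeing the data, small values turned sign, namely Krt19 (-0.013) and Krt8 (0.0061) in thoracic aorta, Upk3b and Upk1b (0.027 each) in abdominal aorta, Upk1b and Krt19 (-0.012 each) and Krt8 (-0.0070) between Sham thoracic and abdominal aorta, and the effect differences of Krt8, mesenteric against thoracic (-0.075), and Krt19, thoracic against abdominal (-0.040). The cause was not tested.

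With the replicate block, on the deposited values, the genes passing were 0 in mesenteric arteries, 1 in thoracic aorta (Upk3b 0.62, adjusted p = 0.0450) and 0 in abdominal aorta, and all transcripts passing were 0, 3575 and 2, against 142, 3622 and 19 without the block; it changed no other call. Transcripts detected on every array left none of the 5 genes to test, and no slide block was run because the files name no slide. Signals near background limit Upk1b, Krt19 and Krt8 in the aorta.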
